A study of Mus musculus with 24 samples.

Results

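The 7 mature microRNAs (miRNAs, small RNAs that guide the silencing of messages) described here are made from the Hox gene clusters of the mouse: mmu-miR-10a-5p, mmu-miR-10a-3p, mmu-miR-10b-5p, mmu-miR-10b-3p, mmu-miR-196a-5p, mmu-miR-196b-5p and mmu-miR-615-3p. The rule lists them by name, with earlier results of these data known, as 7 of the 1907 mature miRNA names in the count table. All 7 were counted in each of the 24 libraries and passed the filter on low counts, which kept 558 names. The libraries are small RNA libraries of subcutaneous adipose tissue, the fat under the skin, from mice fed a high-fat or a control diet. Each diet was sampled at 1 day, at 1 week and at 3 weeks, which gives 6 groups of 4 libraries. The sources used here do not give strain, sex, age, genotype or the composition of the diets. The labels do not state that each library is a different mouse, and the p-values below therefore describe the spread among libraries, part of which may be technical.

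Hox genes encode transcription factors that set position along the body axis, and in adult fat their expression still differs between depots. The miRNA genes lie between or within the Hox genes, on the same strand, and miR-196 is known to repress Hox messages such as Hoxb8 in the mouse embryo. In mouse white fat progenitors miR-196a is known to favour brown adipocyte formation by repressing Hoxc8, and miR-10b is best known for repressing HOXD10 in human breast cancer cells. Each hairpin gives a 5p arm and a 3p arm, of which one is usually loaded into the silencing complex and the other mostly degraded.

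A miRNA finds its targets mainly by bases 2 to 8, the seed, so the sequences are shown to make clear which members can act on the same messages and which differ in 1 base only. The mature sequences below were taken from RefSeq (GRCm38.p6), which held all 7 members. They are written 5′ to 3′ with the seed in capitals.
mmu-miR-10a-5p: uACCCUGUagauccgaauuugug
mmu-miR-10b-5p: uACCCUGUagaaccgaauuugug
mmu-miR-10a-3p: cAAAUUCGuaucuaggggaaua
mmu-miR-10b-3p: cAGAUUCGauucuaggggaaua
mmu-miR-196a-5p: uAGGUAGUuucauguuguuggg
mmu-miR-196b-5p: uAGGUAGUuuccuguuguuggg
mmu-miR-615-3p: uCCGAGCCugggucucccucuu

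The 2 miR-10 5p arms share the seed ACCCUGU and differ by 1 substitution outside it, U12A (the base of miR-10a-5p first, counted from 1 at the 5′ end, then that of miR-10b-5p). Likewise miR-196a-5p and miR-196b-5p share AGGUAGU and differ by A12C. The 3p arms of miR-10a and miR-10b differ at 3 positions, A3G, U9A and A10U, of which the first lies in the seed, so these 2 arms have different seeds. Of the 1623 names in the count table with a RefSeq sequence, no name outside each of these pairs carried the seed of any member, and no other name carried the CCGAGCC of miR-615-3p. Bases 2 to 7 of the miR-196 arms, AGGUAG, stand 1 base further on, at bases 3 to 8, in all 8 let-7 5p names, a family with another seed. Since the 5p arms of each pair differ in a single base, reads with an error at that base could be assigned to the wrong member. The sources used here do not say how the authors treated such reads.

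All positions are on GRCm38, the assembly also called mm10, with the GENCODE vM21 annotation. Mir10a (chr11:96317165-96317274, plus strand) is intergenic in the HoxB cluster, between Hoxb5 and Hoxb4, and ends 992 bases before Hoxb4. Mir10b (chr2:74726070-74726137, plus strand) lies in introns of the annotated Hoxd3 and Hoxd4 in the HoxD cluster. miR-196a-5p is made from 2 hairpins with the same mature arm. Mir196a-1 (chr11:96265164-96265265, plus strand) lies between Hoxb13 and Hoxb9, and Mir196a-2 (chr15:102973350-102973434, plus strand) lies in the HoxC cluster between Hoxc10 and Hoxc9, in an intron of a long annotated Hoxc5 transcript. Counts of miR-196a-5p therefore cannot be divided between the HoxB and HoxC clusters. Mir196b (chr6:52230081-52230165, minus strand) overlaps an annotated exon of Hoxa9, and the 2 arms of Mir615 (chr15:103014926-103014990, plus strand) lie in an intron of Hoxc5. The hairpins of miR-10a and miR-10b are printed whole because both of their arms are members; the capitals mark the 5p arm and, after the loop, the 3p arm.
Mir10a: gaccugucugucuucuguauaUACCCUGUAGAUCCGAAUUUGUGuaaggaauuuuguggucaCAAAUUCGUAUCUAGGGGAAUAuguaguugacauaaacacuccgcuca
Mir10b: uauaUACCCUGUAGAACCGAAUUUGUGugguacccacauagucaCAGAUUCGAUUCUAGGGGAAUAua

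The libraries held 1.99 M to 16.3 M miRNA counts (M for 1e6), with a median of 5.3 M. At day 1 and week 1 every high-fat library held fewer counts than every control library. High-fat libraries held 1.99 M to 5.28 M at day 1 and 2.54 M to 4.15 M at week 1. Control libraries held 5.36 M to 11.3 M and 5.32 M to 16.3 M at the same times. At week 3 the diets overlapped in depth. The part of depth in the diet differences was not tested. Levels are given as CPM (counts per 1e6 counts of the library) after TMM scaling, and a floor of 3 counts corresponds to 0.184 to 1.51 CPM, depending on the library's depth. The 5 adipocyte-enriched miRNAs taken as markers of the labelled tissue were all present, and their summed level was 136400 to 249268 CPM in high-fat libraries and 128746 to 288577 CPM in control libraries. Skeletal muscle markers (6 miRNAs), taken as a sum, were also present in every group, with summed levels of 24 to 80427 CPM in high-fat libraries and 129 to 18459 CPM in control libraries. In bulk tissue such as this, fewer cells of a type and less RNA per cell cannot be told apart.

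The miR-10 5p arms were among the most abundant miRNAs of the tissue and the other members were not. miR-10b-5p and miR-10a-5p ranked 9 and 10 by mean level among the tested names, with 2.38% and 1.76% of all counts. Together they held between 2.9% and 5.23% of a library, with a median of 4.19%, and from 95.2% to 97.4% of the counts of the 11 mature arms of the Hox clusters. The miR-196 5p arms together held 0.0675% to 0.187% of a library.

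Over all 24 libraries miR-10b-5p averaged 23792 ± 3881 CPM and miR-10a-5p averaged 17561 ± 2481 CPM (SD, n = 24, here and for the next 5 members). The step down to miR-196a-5p, at 634.4 ± 122.4 CPM, was the widest in the order, 4.8 ± 0.31 on the log2 scale within a library. miR-196b-5p followed with 543.3 ± 122.2 CPM and miR-615-3p with 264.3 ± 86.1 CPM. The passenger arms miR-10a-3p and miR-10b-3p came last, with 70.5 ± 13 CPM and 57.5 ± 10.1 CPM. This order held in 24 of 24 libraries for each pair of neighbours except the last, where miR-10a-3p exceeded miR-10b-3p in 21 of 24. The difference between those 2 arms, 0.29 ± 0.23 on the log2 scale, was of the size of its spread, with libraries from -0.11 to 0.73. All members are 22 or 23 bases long, so no length correction was made; how efficiently each sequence was cloned was not measured. The least abundant member, miR-10b-3p, had 90 to 782 counts per library, and miR-10b-5p had 44320 to 352642, so every member lay well above the detection floor.

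**Figure D1:**
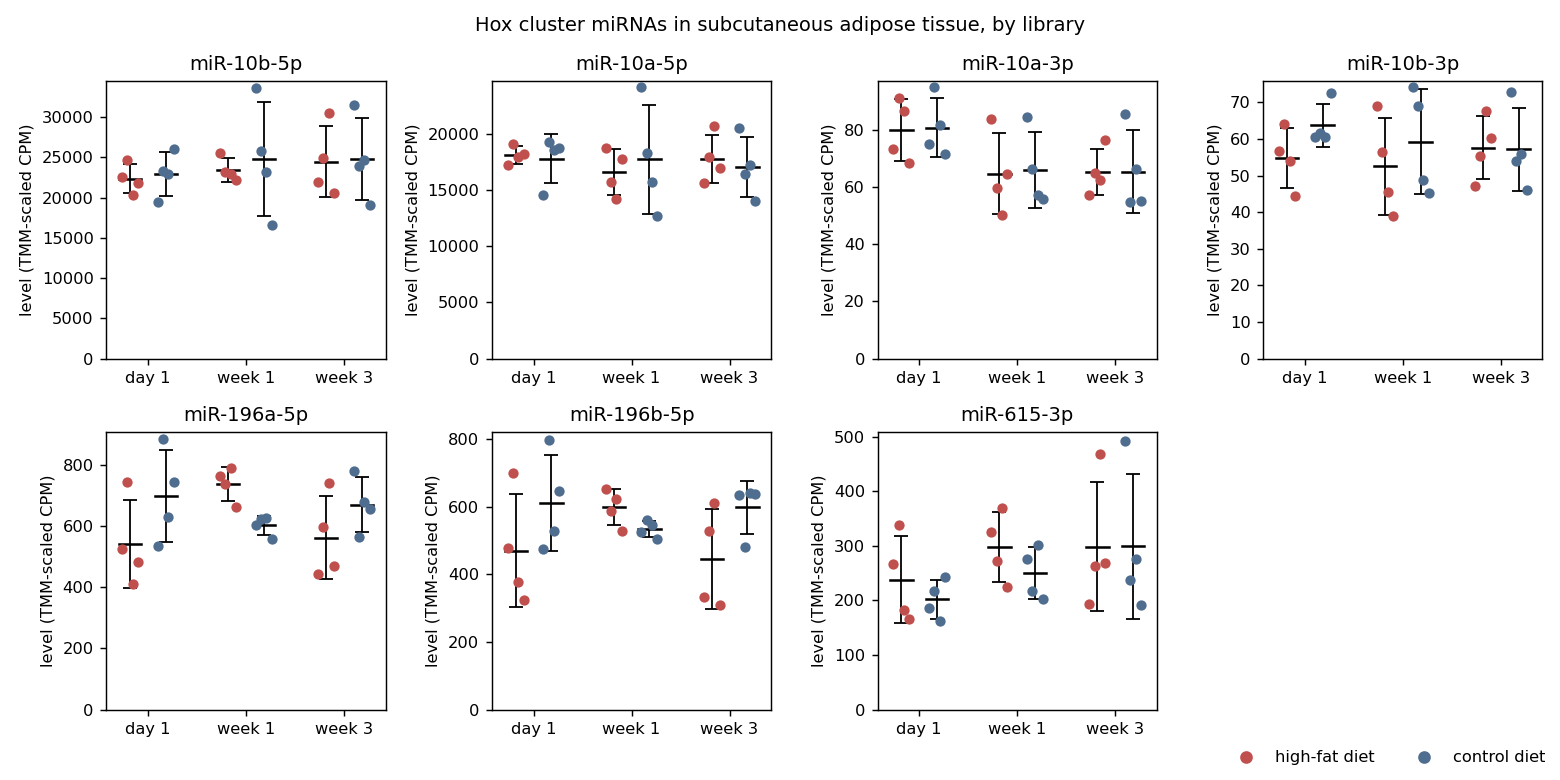
Level of each of the 7 members in every library (vertical axis, TMM-scaled CPM from 0) by time on the diet (horizontal axis), with high-fat libraries in red to the left of control libraries in blue; bars are the mean and SD of 4 libraries. The ranges of the diets overlap in every panel and at every time except for miR-196a-5p at week 1, where the high-fat libraries lie at 660.8 to 787.7 CPM and the control libraries at 557.6 to 624.4 CPM.

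The miR-10 5p arms did not differ between the diets beyond the spread between libraries. At day 1, miR-10b-5p stood at 22578, 24697, 20307 and 21856 CPM in high-fat libraries and at 19388, 23354, 22966 and 26007 CPM in control libraries (replicates 1 to 4, here and below). At week 1 it stood at 25540, 23114, 22932 and 22116 CPM in high-fat libraries and at 33614, 25828, 23164 and 16541 CPM in control libraries. At week 3 the values were 21870, 24916, 30460 and 20605 CPM in high-fat libraries and 31534, 23901, 24630 and 19081 CPM in control libraries. The diets overlapped at all 3 times, and the high-fat libraries of week 1 lay inside the wide range of the control libraries. The log2 fold change of high-fat over control, averaged over the 3 times, was -0.05 ± 0.10 (SE; 95% interval -0.26 to 0.17; adjusted p = 0.993 by the quasi-likelihood test of edgeR).

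miR-10a-5p, its partner with the same seed, gave a similar picture. Its day 1 levels were 17259, 19185, 17956 and 18243 CPM in high-fat libraries and 14575, 19286, 18625 and 18827 CPM in control libraries. Its week 1 levels were 18828, 15788, 14195 and 17832 CPM in high-fat libraries and 24193, 18343, 15792 and 12753 CPM in control libraries. Its week 3 levels were 15632, 17986, 20721 and 16993 CPM in high-fat libraries and 20580, 16498, 17270 and 14092 CPM in control libraries. The diets overlapped at each time, and the mean log2 fold change was 0.00 ± 0.09 (SE; 95% interval -0.20 to 0.19; adjusted p = 0.994, edgeR). At single times the estimates for the 2 arms ran from -0.09 to 0.06, with intervals between -0.45 and 0.40.

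The 3p arms of the same hairpins showed no diet difference past the threshold either. miR-10a-3p averaged 80.1 ± 10.8, 64.8 ± 14.3 and 65.4 ± 8.16 CPM in high-fat libraries at day 1, week 1 and week 3, and 81 ± 10.3, 66.1 ± 13.3 and 65.6 ± 14.6 CPM in control libraries (SD, n = 4 each). Its diet estimates were within 0.03 of 0 at every time, with a mean of -0.02 ± 0.11 (SE; adjusted p = 0.993, edgeR). miR-10b-3p averaged 54.8 ± 8.16, 52.5 ± 13.2 and 57.6 ± 8.55 CPM in high-fat libraries and 63.8 ± 5.88, 59.2 ± 14.4 and 57.2 ± 11.3 CPM in control libraries at the same times (SD, n = 4 each). Its mean log2 fold change was -0.12 ± 0.12 (SE; adjusted p = 0.993, edgeR), and its ranges overlapped at all 3 times.

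The miR-196 arms had the widest diet estimates of the set, in opposite directions at different times, but none passed the test. On day 1 miR-196a-5p had 525.1, 743.1, 411.2 and 481.8 CPM in high-fat libraries and 532.3, 881.8, 627.3 and 744.3 CPM in control libraries. After 1 week it had 763.9, 736.8, 787.7 and 660.8 CPM in high-fat libraries and 602.3, 622.9, 624.4 and 557.6 CPM in control libraries. After 3 weeks it had 442.8, 594.7, 740.4 and 468.7 CPM in high-fat libraries and 780.2, 564.1, 676.7 and 655.5 CPM in control libraries. High-fat libraries were mostly below control libraries at day 1 and week 3, and at week 1 all 4 were above all 4 controls. The log2 fold changes were -0.37 ± 0.19 at day 1, 0.29 ± 0.19 at week 1 and -0.25 ± 0.19 at week 3 (SE). Their adjusted p-values in edgeR were 0.982, 0.458 and 0.999, and the unadjusted values 0.0693, 0.141 and 0.202. With the muscle and leukocyte marker levels as covariates the week 1 estimate was 0.06 (adjusted p = 0.998). Over all settings that kept every library, these covariates included, the estimate ranged over -0.41 to -0.31 at day 1 and -0.27 to -0.19 at week 3. The joint edgeR test of unequal diet effects over the times gave miR-196a-5p an unadjusted value of 0.0523 and an adjusted p of 0.567 over the 558 names.

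miR-196b-5p carries the same seed and followed miR-196a-5p closely. Day 1 gave 477.6, 701.7, 377.3 and 323 CPM in high-fat libraries and 475.3, 796.9, 528 and 646.6 CPM in control libraries. Week 1 gave 654.5, 589.2, 622.2 and 529 CPM in high-fat libraries and 524.9, 561.5, 547.6 and 504.6 CPM in control libraries. Week 3 gave 333.4, 527.5, 612.2 and 308.3 CPM in high-fat libraries and 635.9, 482.4, 641 and 637.5 CPM in control libraries. The groups overlapped at all 3 times, and at week 3 the high-fat libraries formed a low pair and a high pair. The log2 fold changes were -0.38 ± 0.23, 0.16 ± 0.23 and -0.43 ± 0.23 (SE) in time order, with adjusted p-values of 0.982, 0.743 and 0.999 in edgeR. With the muscle and leukocyte covariates the week 1 estimate was -0.09. Over all settings that kept every library, these covariates included, the estimate ranged over -0.42 to -0.34 at day 1 and -0.47 to -0.38 at week 3. The joint edgeR test of unequal diet effects gave an unadjusted value of 0.154 and an adjusted p of 0.616.

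miR-615-3p, from the intron of Hoxc5, was the most variable member. The day 1 values were 266.7, 337.9, 183.1 and 165.2 CPM in high-fat libraries and 186, 216.5, 162 and 242.8 CPM in control libraries. The week 1 values were 325.3, 273.2, 370.2 and 223.8 CPM in high-fat libraries and 276.3, 217.6, 302.5 and 202.2 CPM in control libraries. The week 3 values were 193.9, 262.3, 469.2 and 269.5 CPM in high-fat libraries and 492.1, 237.1, 275.2 and 192.5 CPM in control libraries. At week 3 a single library in each diet, replicate 3 of the high-fat diet and replicate 1 of the control diet, stood well above the rest, and the diets overlapped at every time. The diet estimates were 0.24, 0.26 and 0.00 in time order, each ± 0.29 (SE), with adjusted p-values of 0.982, 0.683 and 0.999 in edgeR. The week 1 estimate was -0.22 with the muscle and leukocyte covariates. Over all settings that kept every library, these covariates included, the estimate ranged over 0.20 to 0.38 at day 1 and 0.00 to 0.09 at week 3.

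Across the diet comparisons, none of the 7 members passed an adjusted p of 0.05, and none reached an unadjusted p of 0.05, in the quasi-likelihood test of edgeR. This held at day 1, at week 1, at week 3, for the mean of the times and for the joint test of a difference between times. The background was as bare, with 0 of 558 names (0%) past the adjusted threshold in either direction in each of these 5 comparisons. DESeq2 and limma-voom called none of the 7 members either, although limma-voom called 19 of all tested names at week 1. At an unadjusted p under 0.05 edgeR had 17 names (3.05%) at day 1, 79 (14.2%) at week 1 and 10 (1.79%) at week 3. It had 18 (3.23%) for the mean of the times and 41 (7.35%) in the joint test, of 558 in each. For the 7 members the median log2 fold changes were -0.04, -0.03 and -0.01 in time order, and for all tested names -0.01, -0.02 and -0.05.

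By the plainer measure of ranges that do not overlap, 1 of the 7 members, miR-196a-5p, was higher in all high-fat libraries than in any control library at week 1, where 5 of 558 names (0.896%) were. Depth did not overlap between the diets at week 1 either, with all high-fat libraries below all control libraries. No member was lower in this sense at week 1, where 1.97% of names were. No member was separated at day 1, where 0.538% of names were higher and 1.25% lower, or at week 3, where 0.358% were higher and 0.717% lower.

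**Figure D2:**
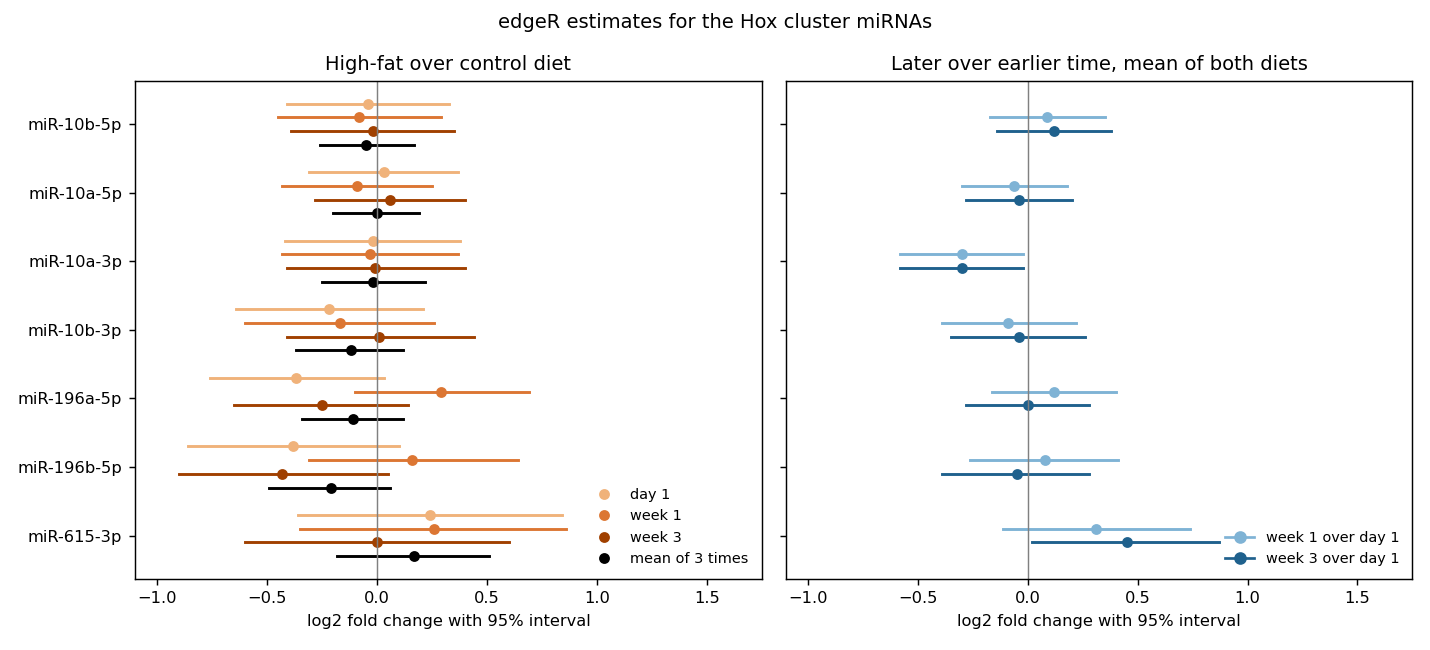
Log2 fold changes of the 7 members with 95% intervals from edgeR, for the high-fat over the control diet at each time and for the mean of the times (left), and for week 1 and week 3 over day 1 averaged over both diets (right). All diet intervals include 0; on the right, those of miR-10a-3p at both times, -0.58 to -0.02, and of miR-615-3p at week 3, 0.02 to 0.87, do not, before adjustment for the number of miRNAs tested.

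Over time, too, no member passed the threshold. None of the 7 passed the adjusted threshold in week 1 against day 1, where 5 of 558 names did (0.896%; 0.538% higher and 0.358% lower). None passed in week 3 against day 1 averaged over the diets, where 40 of 558 did (7.17%; 3.41% higher and 3.76% lower). None passed in week 3 against week 1, or in week 3 against day 1 on the high-fat diet, where no name did (0% in each). None passed in week 3 against day 1 on the control diet, where 2 of 558 did (0.358%, both lower). At an unadjusted p under 0.05, edgeR had 1 member in week 1 against day 1, 2 in week 3 against day 1 averaged over the diets and 0 in the other 3. The same counts over all 558 names were 118 (21.1%) and 156 (28%). For week 3 against week 1, the high-fat diet and the control diet they were 47 (8.42%), 88 (15.8%) and 83 (14.9%). The 1 and 2 of 7 members were thus near the shares of all names. The median log2 fold change of the 7 members was 0.08 at week 1 and -0.04 at week 3 over day 1, against 0.08 and 0.05 for all tested names.

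The first of these members was miR-10a-3p, the passenger arm of miR-10a. Week 1 levels were 84.1, 59.7, 50.4 and 64.8 CPM in high-fat libraries and 84.9, 66.3, 57.4 and 55.8 CPM in control libraries. Week 3 levels were 57.2, 65, 62.5 and 76.6 CPM in high-fat libraries and 85.9, 55, 66.4 and 55.1 CPM in control libraries. Day 1 levels were 73.4, 91.3, 86.9 and 68.5 CPM in high-fat libraries and 75.2, 95.1, 81.8 and 71.8 CPM in control libraries. Most later libraries lay below the lowest library of day 1, but 1 library of each later group reached into the range of day 1. The log2 fold change was -0.30 ± 0.14 for week 1 and -0.30 ± 0.14 for week 3 over day 1 (SE), with unadjusted edgeR values of 0.0389 and 0.0391 and adjusted p-values of 0.209 and 0.159. Its 5p arm, miR-10a-5p, differed by -0.06 ± 0.12 and -0.04 ± 0.12 in the same comparisons (SE). The summed skeletal muscle markers were at 130 to 80427 CPM in high-fat and 539 to 18459 CPM in control libraries of week 1, against 24 to 3022 CPM in high-fat and 129 to 2302 CPM in control libraries of day 1. All 5 muscle markers that were tested had positive estimates for week 1 over day 1, with a median of 3.08 on the log2 scale, and none of them passed the adjusted threshold. With muscle and leukocyte covariates the estimates of miR-10a-3p were -0.22 at week 1 and -0.19 at week 3; the part of muscle tissue in the difference was not tested further.

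The second was miR-615-3p, whose log2 fold change at week 3 over day 1 was 0.45 ± 0.21 (SE; 95% interval 0.02 to 0.87; unadjusted 0.0408, adjusted p = 0.163, edgeR). It averaged 298.7 ± 118.7 CPM in high-fat and 299.2 ± 132.9 CPM in control libraries at week 3, against 238.2 ± 79.8 and 201.8 ± 35.3 CPM at day 1 (SD, n = 4 each). The value rests on a pair of libraries, since it was 0.22 without replicate 1 of the control diet at week 3 and 0.25 without replicate 3 of the high-fat diet at week 3. It was 0.26 in limma-voom with sample weights and 0.25 with the muscle and leukocyte covariates. The other 5 members had estimates between -0.09 and 0.12 in both comparisons with day 1.

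Ratios between members of one library need no scaling between libraries and show differences that the levels may hide. The ratio of miR-10b-5p to miR-10a-5p was above 1 in all 24 libraries, with a range of 1.13 to 1.62 and a mean of 1.36 ± 0.117 (SD, n = 24). No diet difference in it passed the threshold, with log2 differences of -0.07 at day 1, 0.02 at week 1 and -0.08 at week 3 (high-fat minus control; exact two-sided permutation p = 0.343, 0.829 and 0.343). Later libraries had higher ratios than those of day 1 on both diets. At week 3 the ratios were 1.4, 1.39, 1.47 and 1.21 in high-fat libraries and 1.53, 1.45, 1.43 and 1.35 in control libraries. At day 1 they were 1.31, 1.29, 1.13 and 1.2 in high-fat libraries and 1.33, 1.21, 1.23 and 1.38 in control libraries. The ranges of the times still overlapped on both diets.

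For week 3 minus day 1 the log2 difference of this ratio was 0.16, with 0.15 on the high-fat diet and 0.16 on the control diet (exact two-sided permutation p = 0.00816 over the 4900 regroupings of time within diet). For week 1 minus day 1 it was also 0.16, with 0.20 and 0.11 on the high-fat and control diets (exact permutation p = 0.0127). Both had an adjusted p of 0.0502 over the 12 ratios compared over time, a family that was added after the data were seen. With a pseudocount of 5 in place of 0.5 counts the adjusted p was 0.0478 for both. These adjusted values lay beside the threshold, on either side of it according to that setting. The adjustment gave the same values to the arm ratio of miR-10a at both later times, described next. The log2 differences of the present ratio stayed at 0.16 with the pseudocount of 5, so the shift does not show that this ratio itself moved.

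The arms of each miR-10 hairpin kept very unequal amounts. miR-10a-5p was 194 to 331 times as abundant as miR-10a-3p, with a median of 261, and miR-10b-5p was 320 to 564 times as abundant as miR-10b-3p, with a median of 411. For neither hairpin did a diet difference in the arm ratio pass the threshold (exact permutation p from 0.571 to 0.743 for miR-10a and from 0.0857 to 1 for miR-10b, single times and mean of the times). The miR-10a ratio was higher at both later times, by 0.23 on the log2 scale at week 1 (0.19 on the high-fat and 0.27 on the control diet; exact permutation p = 0.0167) and by 0.26 at week 3 (0.26 on both diets; exact permutation p = 0.0159). Each had an adjusted p of 0.0502, and of 0.0478 with the pseudocount of 5 counts. These differences come from the same counts as the lower miR-10a-3p levels given above and are not a separate observation. There the 3p arm differed by -0.30 at both times and the 5p arm by -0.06 and -0.04. The miR-10b ratio was on average also higher than at day 1, by 0.18 at week 1 and 0.16 at week 3 (exact permutation p = 0.0857 and 0.0661, adjusted p = 0.171 and 0.159).

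The ratio of miR-196a-5p to miR-196b-5p was above 1 in all 24 libraries too, with a range of 1.03 to 1.52. At week 1 it was 1.17, 1.25, 1.27 and 1.25 in high-fat libraries and 1.15, 1.11, 1.14 and 1.11 in control libraries. The groups did not overlap, with a log2 difference of 0.13 and the smallest p that 4 against 4 libraries allow (exact two-sided permutation p = 0.0286). The diets did not overlap in depth at week 1 either. At day 1 the ratio was 1.1, 1.06, 1.09 and 1.49 in high-fat libraries and 1.12, 1.11, 1.19 and 1.15 in control libraries, a difference of 0.04 (-0.08 without replicate 4 of the high-fat diet). At week 3 it was 1.33, 1.13, 1.21 and 1.52 in high-fat libraries and 1.23, 1.17, 1.06 and 1.03 in control libraries, a difference of 0.21 with overlap (exact permutation p = 0.143). Averaged over the times the difference was 0.13 (exact permutation p = 0.0269 over the 343000 regroupings of diet within time). After adjustment over the 20 ratios and shares compared between diets, neither value passed the threshold (adjusted p = 0.286 for both).

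**Figure D3:**
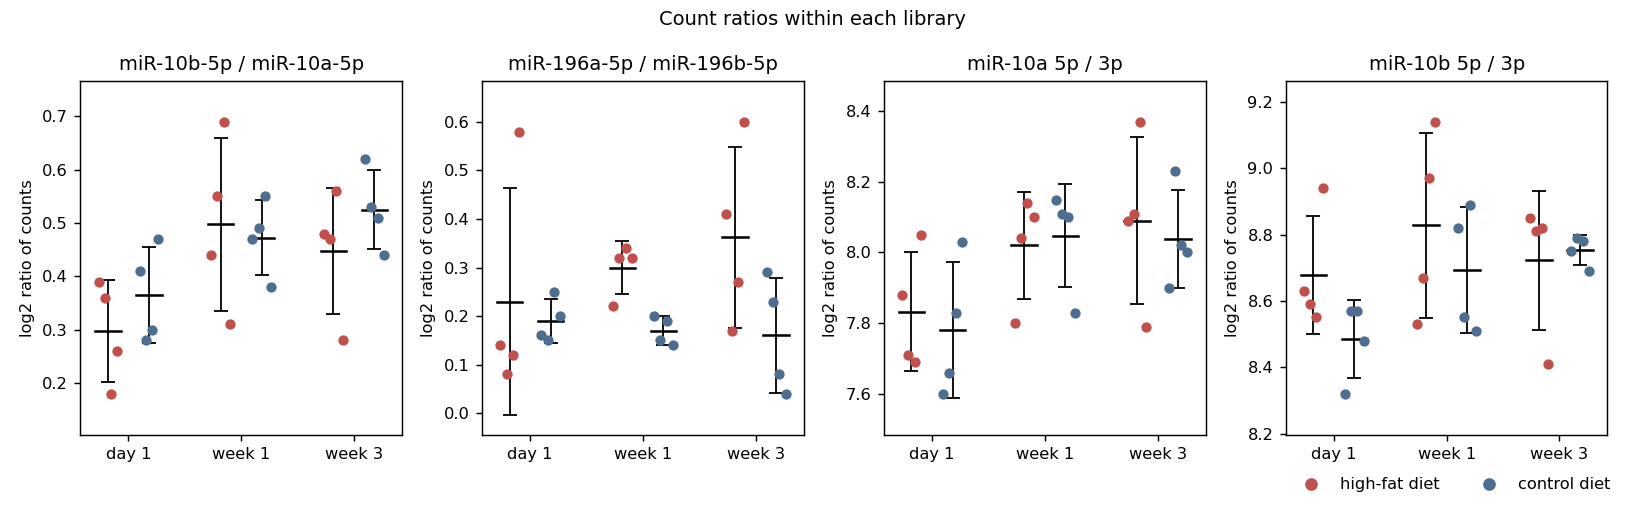
Log2 ratios of counts within each library (vertical axes, each with its own range) by time on the diet, for miR-10b-5p over miR-10a-5p, miR-196a-5p over miR-196b-5p, and the 5p over the 3p arm of miR-10a and of miR-10b; high-fat libraries in red stand left of control libraries in blue, and bars are the mean and SD of 4 libraries. The ratio of the miR-196 arms at week 1 is the one where the diets do not overlap (0.22 to 0.34 in high-fat, 0.14 to 0.20 in control libraries). The panels of miR-10b-5p over miR-10a-5p and of the arms of miR-10a and of miR-10b are on average lower at day 1 than later on both diets.

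The share of all counts that the 11 arms of the Hox clusters took showed no diet difference past the threshold either. It averaged 4.26 ± 0.465%, 4.34 ± 0.406% and 4.19 ± 0.793% in high-fat libraries at day 1, week 1 and week 3, and 4.21 ± 0.6%, 4.41 ± 1.04% and 4.38 ± 0.897% in control libraries (SD, n = 4 each). The exact permutation p-values at the 3 times were 0.914, 1 and 0.829. Week 1 control libraries spanned 3.03% to 5.37%, which were also the lowest and the highest share of all 24 libraries.

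Among the more abundant names the spread of the members was mostly on the low side. The coefficient of variation of the CPM over 24 libraries was 14.1% for miR-10a-5p, and 22 of the 246 tested names with a mean of at least 50 CPM had a lower one. It was 16.3% for miR-10b-5p, 17.5% for miR-10b-3p, 18.3% for miR-10a-3p, 19.3% for miR-196a-5p and 22.5% for miR-196b-5p, all below the median of 24.5% over the 246 names, which were not matched to the members by level. miR-615-3p was above it, with 32.5%.

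Correlations between members ranged widely, both within and between families. Of the 21 pairs, miR-196a-5p and miR-196b-5p had the highest correlation of log2 CPM (Pearson's r = 0.92, Spearman's rho = 0.93, permutation p = 1e-05 for each, the smallest that 100000 resamples give; adjusted p = 0.0001 and 0.00021; 24 libraries). It was 0.91 without the 2 libraries farthest from the median of miR-196a-5p and 0.92 for deviations from the 6 group means. miR-10a-5p and miR-10b-5p followed (r = 0.84, rho = 0.77, permutation p = 1e-05 and 3e-05, adjusted p = 0.0001 and 0.00031), with 0.71 without the 2 farthest libraries and 0.91 within groups. Both pairs differ in a single base, and the hairpins that make them lie on different chromosomes. The arms of one hairpin correlated at r = 0.68 for miR-10a (rho = 0.70, permutation p = 0.00029 for each, adjusted p = 0.0015 and 0.0012) and at r = 0.68 for miR-10b (rho = 0.73, permutation p = 0.00017 and 8e-05, adjusted p = 0.0012 and 0.00056). Within the miR-10 family the lowest value was that of miR-10a-3p with miR-10b-5p (r = 0.32, rho = 0.27, permutation p = 0.13 and 0.2, adjusted p = 0.17 and 0.23).

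Some pairs from different families exceeded that value. miR-10b-5p and miR-615-3p had r = 0.65 (rho = 0.64, permutation p = 0.0006 and 0.00079, adjusted p = 0.0021 and 0.0027; 0.67 within groups). miR-196a-5p and miR-615-3p, whose hairpins Mir196a-2 and Mir615 lie in the same HoxC cluster, had r = 0.56 (rho = 0.56, permutation p = 0.0046 and 0.0049, adjusted p = 0.012 and 0.013; 0.75 within groups). miR-10a-5p and miR-196a-5p, which share the HoxB cluster through Mir196a-1, had r = 0.23 (rho = 0.39, permutation p = 0.27 and 0.061, adjusted p = 0.34 and 0.092; 0.44 within groups). All levels of one library share its depth and its scaling factor.

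**Figure D4:**
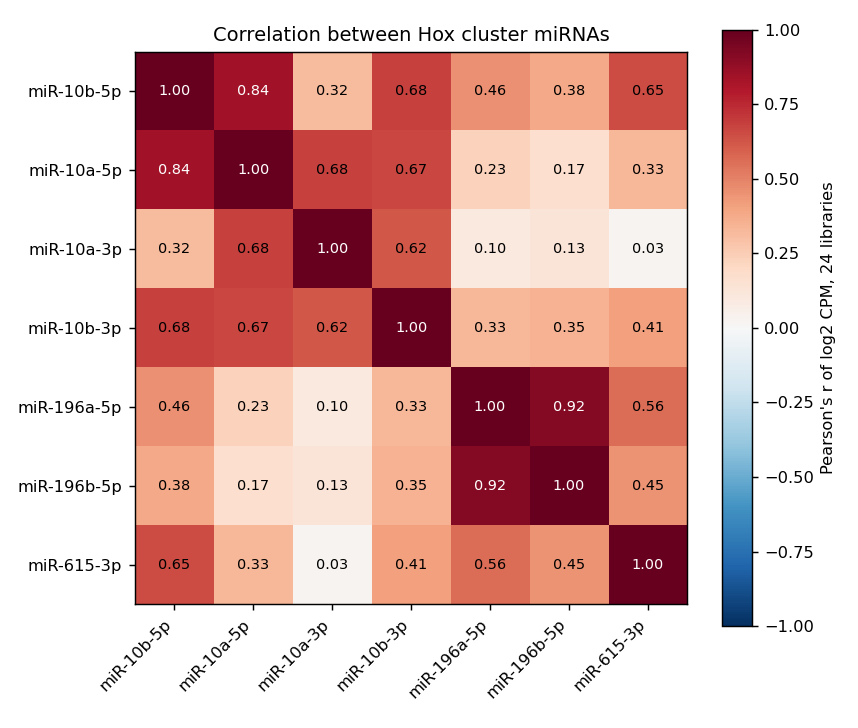
Pearson's r of log2 CPM over 24 libraries for each pair of the 7 members, as colour from -1 (blue) to 1 (red) with the value in each cell. The highest values are those of the pairs with one seed, 0.92 for the miR-196 arms and 0.84 for the miR-10 5p arms, and the lowest those of miR-10a-3p with miR-615-3p (0.03) and with miR-196a-5p (0.10).

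Both miR-196 arms correlated with epithelial markers. Over the 24 libraries miR-196a-5p correlated with the mean level of 7 epithelial miRNAs (the miR-200 family, miR-203 and miR-205) at r = 0.63 and rho = 0.69 (permutation p = 0.00096 and 0.0003; adjusted p = 0.018 and 0.01 over the 35 pairs of member and marker list). The value was 0.56 without the 2 libraries farthest from the median of the markers and 0.54 within groups. miR-196b-5p had r = 0.63 and rho = 0.65 (permutation p = 0.001 and 0.00085, adjusted p = 0.018 and 0.015), with 0.57 without 2 libraries and 0.56 within groups. With the mean of 6 leukocyte miRNAs miR-196a-5p correlated negatively (r = -0.58, rho = -0.63, permutation p = 0.003 and 0.0014, adjusted p = 0.026 and 0.016; -0.50 without 2 libraries and -0.47 within groups). For miR-196b-5p the correlation with leukocyte markers did not pass (r = -0.43, rho = -0.50, permutation p = 0.037 and 0.014, adjusted p = 0.18 and 0.095).

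These markers had estimates of the same sign as the miR-196 arms at week 1 and week 3 in the case of epithelium. The estimates of all 7 epithelial markers were positive for high-fat over control at week 1, with a median log2 fold change of 0.38, and all 7 were negative at week 3, with a median of -0.33. At day 1, 2 were positive and 5 negative, with a median of -0.29. None of these markers passed the adjusted threshold. Their summed level ranged from 8761 to 39056 CPM in high-fat and from 12758 to 16416 CPM in control libraries of week 1. Replicate 2 of the high-fat diet at week 1 went the other way. Its mean of the epithelial markers was 9.84 log2 CPM, below the week 1 control libraries (10.36 to 10.68), while its miR-196a-5p level was 736.8 CPM. The rest of that high-fat group had marker means of 11.07 to 11.94. For leukocytes 5 of 6 estimates were negative at week 1, with a median of -1.52 and none past the threshold, and the summed level was 3319 to 17005 CPM in high-fat and 8648 to 41901 CPM in control libraries. At day 1, 5 of 6 leukocyte estimates were positive, with a median of 0.35, and at week 3 there were 3 of each sign, with a median of -0.01. Each marker of both lists had counts in the series as a whole. The part of these markers in the values of the miR-196 arms was not tested beyond the fit with muscle and leukocyte covariates.

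Of the other members, miR-615-3p correlated with leukocyte markers (r = -0.57, rho = -0.42, permutation p = 0.0037 and 0.041, adjusted p = 0.026 and 0.24; -0.50 without 2 libraries and -0.55 within groups). miR-10a-3p correlated with skeletal muscle markers (r = -0.57, rho = -0.51, permutation p = 0.0036 and 0.011, adjusted p = 0.026 and 0.095; -0.44 without 2 libraries and -0.39 within groups). In both cases Pearson's r passed the adjusted threshold and Spearman's rho did not. The smooth muscle and fibroblast list and the adipocyte list correlated with no member past the threshold, with r between -0.46 and 0.19.

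**Figure D5:**
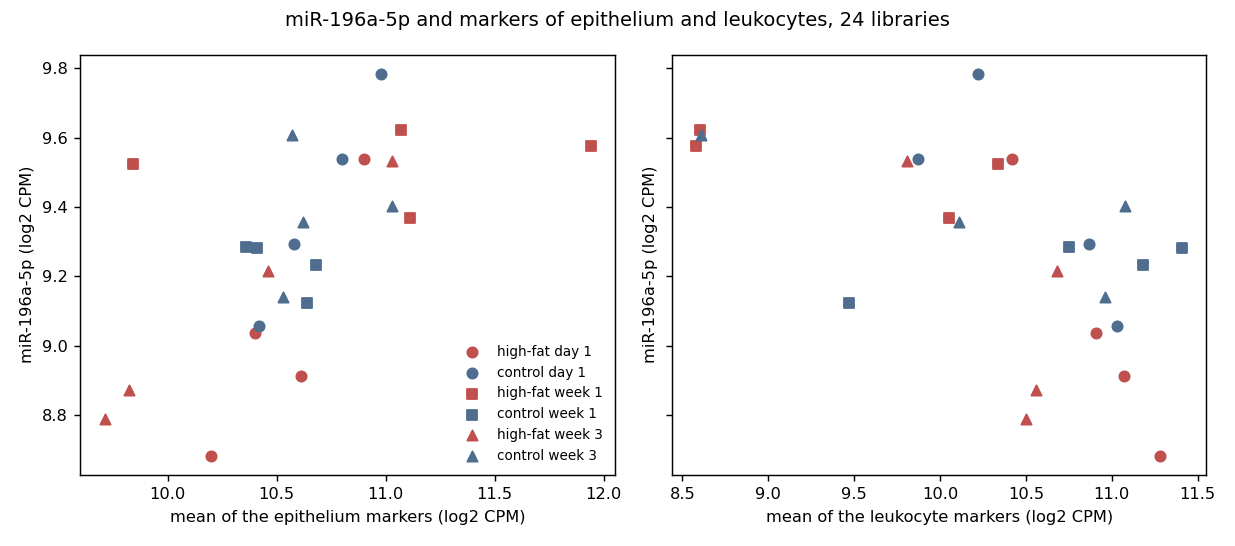
Level of miR-196a-5p (vertical axis, log2 CPM) against the mean of the epithelium markers (left) and of the leukocyte markers (right; horizontal axes, log2 CPM) in 24 libraries, with high-fat libraries in red, control libraries in blue and a shape for each time. The points slope up on the left panel (r = 0.63) and down on the right panel (r = -0.58); the high-fat week 1 libraries lie in the upper part of both.

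The miRNAs outside the Hox clusters whose log2 CPM was most like that of each member were taken as the 3 with the highest Pearson's r over the 24 libraries. For miR-196a-5p they were miR-125b-5p (r = 0.84), miR-125a-5p (0.84) and let-7c-2-3p (0.79), and for miR-196b-5p the same 3 names in the same order (0.86, 0.83 and 0.78). For miR-10b-5p they were miR-125a-5p (0.68), miR-1843b-3p (0.66) and miR-339-5p (0.66). For miR-10a-5p they were miR-151-3p (0.77) and, at low levels of 5.74 and 14 CPM, miR-3474 (0.72) and miR-350-5p (0.71). For miR-615-3p they were miR-676-3p (0.81), miR-100-5p (0.81) and miR-22-3p (0.79). The 3p arms of miR-10 had miR-186-5p (0.73), miR-184-3p (0.69) and miR-28c (0.66) for miR-10a, and miR-28a-5p (0.73), miR-28c (0.72) and miR-151-3p (0.72) for miR-10b. Each was picked as the highest among all tested names and is given as a description.

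The other 4 mature arms of the clusters were scarce. miR-196a-2-3p averaged 4.04 ± 1.16 CPM and miR-196b-3p 1.58 ± 0.585 CPM (SD, n = 24). miR-196a-1-3p and miR-615-5p, with 110 and 34 counts over all libraries, did not pass the filter on low counts. The 2 that did pass, with the 7 members, made 9 tested arms of the clusters, and 0 of 9 passed the adjusted threshold of edgeR in any of the 10 comparisons, with no arm past an unadjusted 0.05 other than the members already named. The 3p arms of the 2 miR-196a hairpins differ in sequence, so that 599 counts of miR-196a-2-3p against 110 of miR-196a-1-3p are the only counts that tell the HoxC from the HoxB hairpin; they are of discarded arms and do not give the share of each hairpin in miR-196a-5p.

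miR-99a, miR-99b and miR-100 are relatives of miR-10 outside the Hox clusters, with the seed ACCCGUA in their 5p arms where miR-10 has ACCCUGU. Aligned with miR-10a-5p, miR-100-5p had 20 identical bases, 2 mismatches and 1 gap. miR-99a-5p held 8.06% of all counts, more than both miR-10 5p arms together, miR-100-5p held 0.719% and miR-99b-5p 0.29%. All 6 of their arms were tested and 0 of 6 passed the adjusted threshold of edgeR in any comparison, with at most 4 of 6 past an unadjusted 0.05, in week 3 against day 1 on the high-fat diet, where 88 of 558 names (15.8%) were. The nearest was miR-99b-5p in week 3 against day 1 averaged over the diets (log2 fold change 0.40 ± 0.12 SE, adjusted p = 0.0508, edgeR). Its levels were 3235 ± 625 CPM in high-fat and 3150 ± 733 CPM in control libraries at week 3, against 2375 ± 293.4 and 2466 ± 273.3 CPM at day 1 (SD, n = 4 each). This miRNA was singled out after its values were seen. miR-10b-5p and miR-10a-5p differed by 0.12 ± 0.13 and -0.04 ± 0.12 (SE) in that comparison averaged over the diets.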

How the data were processed

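Small RNA libraries were made from total RNA with a NEBNext kit, per the labels' protocols. The deposited table held raw counts per mature miRNA name, made by the authors with FastQC, Trim Galore, Bowtie2 and featureCounts on mm10, per the submitters' processing notes; the sources used here give no settings and do not say how reads matching several hairpins were handled. From these counts, filterByExpr of edgeR 4.0.16 (R 4.3.3; 6 groups, minimum count 10, minimum total 15) kept 558 of 1907 names; 440 names were at 0 in every library, and the 1349 left out held 0.0179% of counts. A cell-means model of the 6 groups was fitted to all 24 libraries with the robust quasi-likelihood test and TMM scaling, with Benjamini-Hochberg adjustment over the 558 names and a threshold of 0.05. Within-library ratios, log2 of counts with a pseudocount of 0.5, were tested by exact two-sided permutation (scipy 1.17.1; smallest p for 4 against 4 libraries, 0.0286), and correlations with 100000 permutations. Alternatives were RLE size factors, TMM without the 5 most abundant miRNAs, no filter, DESeq2 1.42.0, voom of limma 3.58.1 with sample quality weights, replicate number as a block, muscle and leukocyte covariates, a pseudocount of 5 and leaving out libraries. Intervals and floors cover counting error or the spread between libraries only. Library pairs within a group had a chi-square per degree of freedom of at least 148, so none was merged. All 7 members, and the other arms, relatives and neighbours by the rules given beside them, are named; members and lists were chosen with earlier results of these data known.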

Additional observations from a re-analysis of the deposited data

Results flagged for a closer look

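Of 72 groups of 4 libraries examined for the members and their ratios, 7 held a library whose gap to the nearest other, divided by the range of the group, exceeded the critical value of 0.829; chance gives about 5%. Replicate 1 of the control diet at day 1 had the lowest miR-10a-5p level of its group, 14575 CPM (0.86 of the range). Replicate 4 of the same group had the highest miR-10b-3p level, 72.6 CPM (0.917). Replicate 2 of the control diet at week 3 had the lowest miR-196b-5p level, 482 CPM (0.968). For log2 ratios of the 5p to the 3p arm, replicate 4 of the control diet at week 1 was lowest for miR-10a, at 7.83 (0.839), and replicate 4 of the high-fat diet at week 3 was lowest for miR-10b, at 8.41 (0.917). The log2 ratio of miR-196a-5p to miR-196b-5p was highest in replicate 4 of the high-fat diet at day 1, at 0.58 (0.89), and lowest in replicate 1 of the high-fat diet at week 1, at 0.22 (0.836).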

How the results depend on the processing

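No member passed the threshold in any of the 320 combinations of comparison and alternative. The lowest adjusted p among 1568 member values was 0.0524 (miR-10a-3p, week 3 over day 1, limma-voom). Those values left out week 3 over week 1 and week 3 over day 1 on each diet, for which no lowest value was taken. Of 1344 member fold changes under alternatives, 126 took the sign opposite to the reported value; the causes were not tested. Reported values of 0.00 have no sign: leaving out 1 library, these ranged over -0.24 to 0.38 (miR-615-3p, diet at week 3), -0.02 to 0.09 (miR-10a-5p, diet, mean of times) and -0.12 to 0.04 (miR-196a-5p, week 3 over day 1).

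For high-fat over control at day 1, miR-10a-3p was 0.02 and miR-10b-5p 0.01 with RLE size factors and in DESeq2, and miR-10a-5p -0.02 with no filter. At week 1, miR-10a-3p was 0.02 (RLE), 0.03 (TMM without the 5 most abundant miRNAs, and DESeq2) and 0.01 (limma-voom), and with muscle and leukocyte covariates miR-196b-5p was -0.09 and miR-615-3p -0.22. At week 3, miR-10a-3p was 0.05 (RLE and DESeq2), 0.06 (TMM without 5), 0.04 (no filter and covariates), 0.13 (limma-voom) and 0.02 (replicate block). There miR-10b-5p was 0.03 (RLE, no filter, DESeq2), 0.05 (TMM without 5) and 0.06 without the 3 libraries highest in muscle markers, and miR-10b-3p -0.01 without those 3. For the mean of the times miR-10a-3p was 0.03 (RLE, TMM without 5, DESeq2, limma-voom). For week 1 over day 1, miR-196b-5p was -0.01 (TMM without 5) and miR-10a-5p 0.01 (covariates) and 0.02 (without the 3). For week 3 over day 1, miR-10a-5p was 0.05 (covariates) and miR-196b-5p 0.02 (without the 3).

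Names past the threshold among all tested, at week 1 between diets 0, were 19 in limma-voom and 31 without the 3 muscle-high libraries. For week 1 over day 1 (5) they were 2 (RLE), 10 (TMM without 5), 37 (DESeq2), 35 (limma-voom), 10 (replicate block), 0 (covariates) and 0 (without the 3). For week 3 over day 1 (40) they were 19 (no filter), 71 (DESeq2), 99 (limma-voom) and 76 (covariates). On the high-fat diet (0) they were 3 (TMM without 5), 1 (no filter), 11 (DESeq2), 13 (limma-voom), 9 (covariates) and 1 (without the 3), and on the control diet (2) they were 0 (no filter), 6 (DESeq2), 4 (limma-voom), 0 (replicate block) and 15 (covariates). With a pseudocount of 5 the later-minus-day 1 log2 differences were 0.23 and 0.26 for the miR-10a arms and 0.16 at both times for miR-10b-5p to miR-10a-5p, each with adjusted p = 0.0478.

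Leaving out 1 library at a time, the names past the threshold ranged over 0 to 22 (week 1 diet; 22 without control week 1 replicate 4), 0 to 2 (mean of times; 2 without high-fat week 3 replicate 2), 2 to 12 (week 1 over day 1), 20 to 46 (week 3 over day 1; 20 without control week 3 replicate 1, 21 without high-fat week 3 replicate 3, and 24 to 26 without replicate 3 of the control diet at day 1, week 1 or week 3, or without replicate 4 of the high-fat diet at week 3), 0 to 3 (high-fat diet) and 0 to 4 (control diet). Member diet estimates that crossed 0 ranged at day 1 over -0.02 to 0.11 (miR-10a-5p), -0.06 to 0.12 (miR-10a-3p) and -0.07 to 0.06 (miR-10b-5p); at week 1 over -0.17 to 0.12, -0.12 to 0.16 and -0.18 to 0.12 for the same 3; at week 3 over -0.09 to 0.20 (miR-10a-3p), -0.08 to 0.16 (miR-10b-5p) and -0.03 to 0.19 (miR-10b-3p); and for the mean over -0.04 to 0.07 (miR-10a-3p) and -0.07 to 0.04 (miR-10b-5p). Over time they were -0.05 to 0.12 (miR-10b-5p) and -0.06 to 0.15 (miR-196b-5p) for week 1, and -0.19 to 0.02 (miR-196b-5p) for week 3.

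Of the diet ratios, the miR-10a arms ranged over -0.02 to 0.14, -0.10 to 0.04 and -0.04 to 0.15 in time order and -0.01 to 0.06 for the mean, the miR-10b arms at week 3 over -0.07 to 0.07, miR-10b-5p to miR-10a-5p at week 1 over -0.04 to 0.09, miR-196a-5p to miR-196b-5p at day 1 over -0.08 to 0.09, and the Hox share over -0.04 to 0.11 (day 1), -0.21 to 0.05 (week 3) and -0.07 to 0.03 (mean). Over time the miR-10a arms ranged over 0.20 to 0.27 (week 1) and 0.21 to 0.31 (week 3), the miR-10b arms at week 3 over 0.13 to 0.21, and miR-10b-5p to miR-10a-5p over 0.12 to 0.19 and 0.14 to 0.18, some with adjusted p under the threshold (lowest 0.0245). From week 1 to week 3 they were -0.02 to 0.08 (miR-10a arms), -0.07 to 0.03 (miR-10b arms) and -0.01 to 0.06 (miR-196).

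Replicate numbers gave no visible pairing of the libraries: median correlations of deviations were -0.09 to 0.09 by number, and 4 of 24 libraries correlated best with their own number. The labels do not say whether the numbers pair the groups, and these correlations cannot decide it, since a weak shared effect could go unseen. The replicate block changed no member call.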
